A study of Rattus norvegicus with 6 samples.

Results

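Cytochrome P450 enzymes and their electron donor Por were followed in RNA sequencing libraries of rat mesenchymal stem cells whose labelled tissue is nasal mucosa. The members were defined by gene symbol: every gene with a row in the deposited count table whose symbol has the form Cyp, number, letter, number, without Cyp1a1, Cyp1b1 and Cyp26b1, plus Por. This gave 42 of the 20653 genes in the table. The measured value that entered the choice was the presence of a row, and 5 members stood at its edge with 1 read over all libraries (Cyp19a1, Cyp2a3, Cyp2b1, Cyp2c22 and Cyp2d5). The family was put forward with the contrast between the groups already known, and the gain of Cyp4b1 in particular, so the member counts are a description and Cyp4b1 is given without a p-value. The libraries were 3 of NPS-EMSC, which overexpress neuropeptide S according to the series title, and 3 of EMSC. All 6 came from primary cells of the genotype labelled SD. The labels give neither the vector nor a control vector for EMSC, nor whether the 3 libraries of a group came from separate cultures or animals, so p-values measure the spread between these libraries, which may be technical. The gene transfer as such and neuropeptide S cannot be told apart in this design.

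P450 enzymes are heme proteins that insert an oxygen atom into fats, sterols, steroids, vitamins and foreign chemicals. The microsomal members receive electrons from Por, the NADPH-cytochrome P450 oxidoreductase, and the mitochondrial members from ferredoxin. The nasal mucosa is known as a P450-rich tissue, in which most of the enzyme lies in epithelial and glandular cells.

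The libraries held 39082245 to 39511976 reads in NPS-EMSC and 39314098 to 40261205 in EMSC. Nps, the neuropeptide S gene, gave 77014 to 93566 reads per NPS-EMSC library and 0 to 10 per EMSC library. All 10 mesenchymal markers were measured, with summed levels of 23052 to 24114 CPM, reads scaled to the size of the library, in NPS-EMSC and 23253 to 25383 CPM in EMSC. All 10 were called at an adjusted p under 0.05, 6 higher, among them Nt5e (log2 fold change 2.16, SE 0.08) and Thy1 (1.55, SE 0.05), and 4 lower, among them S100a4 (-1.18, SE 0.05) and Pdgfra (-0.95, SE 0.05). The 12 nasal and olfactory epithelial markers with a row summed to 0.257 to 0.646 CPM in NPS-EMSC and 0.322 to 0.726 CPM in EMSC. Muc5ac and Ermn had no row, Krt5, Krt14 and Cnga2 were at 0 in NPS-EMSC, and Muc5b, Krt15, Bpifa1 and Bpifb1 were at 0 in EMSC. The 11 leukocyte and macrophage markers summed to 10.04 to 13.1 CPM in NPS-EMSC and 65.3 to 79.2 CPM in EMSC, with 7 of 8 tested members lower, 1 higher and none at 0 in a whole group. Of those lower, Ptprc, Csf1r, Itgam and C1qa passed the filter on low counts through EMSC alone. The 8 glial markers summed to 6.78 to 7.78 CPM in NPS-EMSC and 29.2 to 31.6 CPM in EMSC, with 2 of 4 tested members lower. The 4 hepatocyte markers with a row summed to 2.95 to 3.49 CPM in NPS-EMSC and 2.02 to 2.20 CPM in EMSC, with no row for Alb and Ttr. Among them Serpina1 had 89 reads in NPS-EMSC and 0 in EMSC, and Fgb had 6 reads in NPS-EMSC and 0 in EMSC. Serpina1 was called higher but passed the filter on low counts through NPS-EMSC alone. The 5 endothelial markers with a row summed to 2.29 to 2.98 CPM in NPS-EMSC and 2.67 to 3.11 CPM in EMSC. Calls in these marker lists stand beside the 59.3% of all genes tested that were called. The part of these cells in the P450 results was not tested, and in bulk samples fewer cells of a type and less RNA per cell cannot be told apart.

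The P450 genes of these cells changed in both directions, with Cyp4b1 and Cyp11b1 gained and Cyp4f1, Cyp1a2 and Cyp2s1 nearly lost in NPS-EMSC, while Por stayed within the spread of the libraries. Of the 42 members, 26 had enough reads to be tested and 16 did not. Of the 26, 7 were higher and 12 lower in NPS-EMSC at an adjusted p under 0.05, and 7 were not called. Among all 14505 genes tested, 59.3% were called, 29.7% higher and 29.5% lower. With a fold change of 2 or more also required, 4 members were called higher and 7 lower, against 6.48% and 8.3% of all genes. The 3 values of NPS-EMSC did not overlap the 3 of EMSC in 20 tested members, and in 64.7% of all genes tested. Since a gene read in 1 group only passes the filter through that group, no support is drawn from these shares. The median log2 fold change was -0.13 over the tested members and -0.0048 over all genes. Fold changes are NPS-EMSC minus EMSC on the log2 scale, with a standard error (SE).

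**Figure D1:**
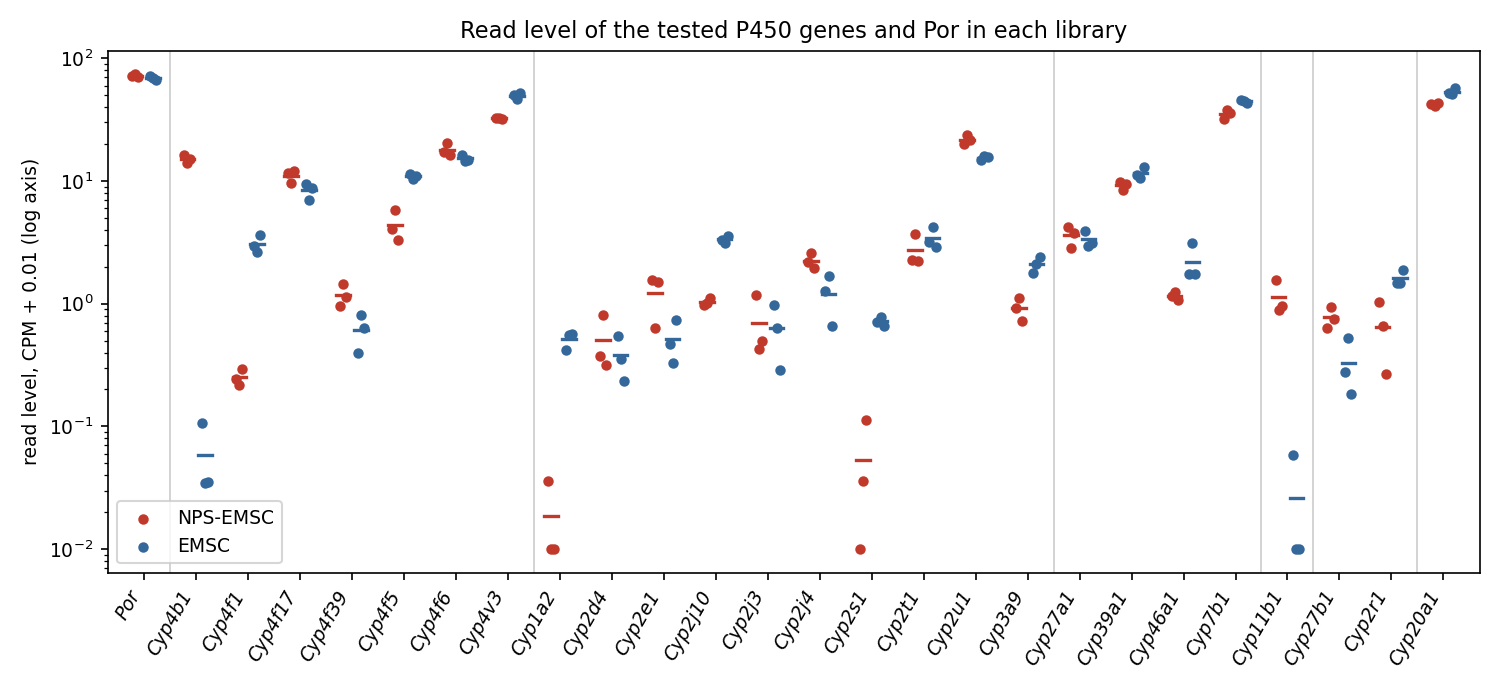
Read level of the 26 tested members in each library, as CPM + 0.01 on a log axis, with NPS-EMSC in red and EMSC in blue. Points are libraries, short lines are group means, and vertical lines separate Por, CYP4, CYP1 to CYP3, sterol, steroid, vitamin D and other members. Cyp4b1 and Cyp11b1 stand far apart upward, and Cyp4f1, Cyp1a2 and Cyp2s1 downward, while the Por points of both groups overlap.

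Measured per length, few of the P450 members made up most of their summed level. Sums and shares here cover the members alone. P450 genes outside the rule are left out, among them Cyp51, at 63.2 FPKM in NPS-EMSC and 71.6 FPKM in EMSC. In deposited FPKM, which scale reads by gene length and library size, the 41 P450 genes summed to 74.6 ± 1.47 in NPS-EMSC and 85.7 ± 2.996 in EMSC (SD, n = 3 each), and the single libraries did not overlap. At least 1 read was found for 28 to 31 P450 genes per NPS-EMSC library and 29 to 32 per EMSC library. Without Cyp4b1 the sums were 67.9 ± 1.88 FPKM in NPS-EMSC and 85.6 ± 2.99 FPKM in EMSC. The order in NPS-EMSC was Cyp20a1, Cyp7b1, Cyp4v3, Cyp4b1 and Cyp4f6, which held 72.6% of the summed P450 FPKM. In EMSC the same first 3 genes were followed by Cyp4f6 and Cyp4f5, and the top 5 held 76.3%. Cyp4b1 ranked 4 in NPS-EMSC and 27 in EMSC. Its NPS-EMSC level of 6.71 ± 0.409 FPKM and that of Cyp4f6, 6.56 ± 0.772 FPKM, differed by less than their SD.

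**Figure D2:**
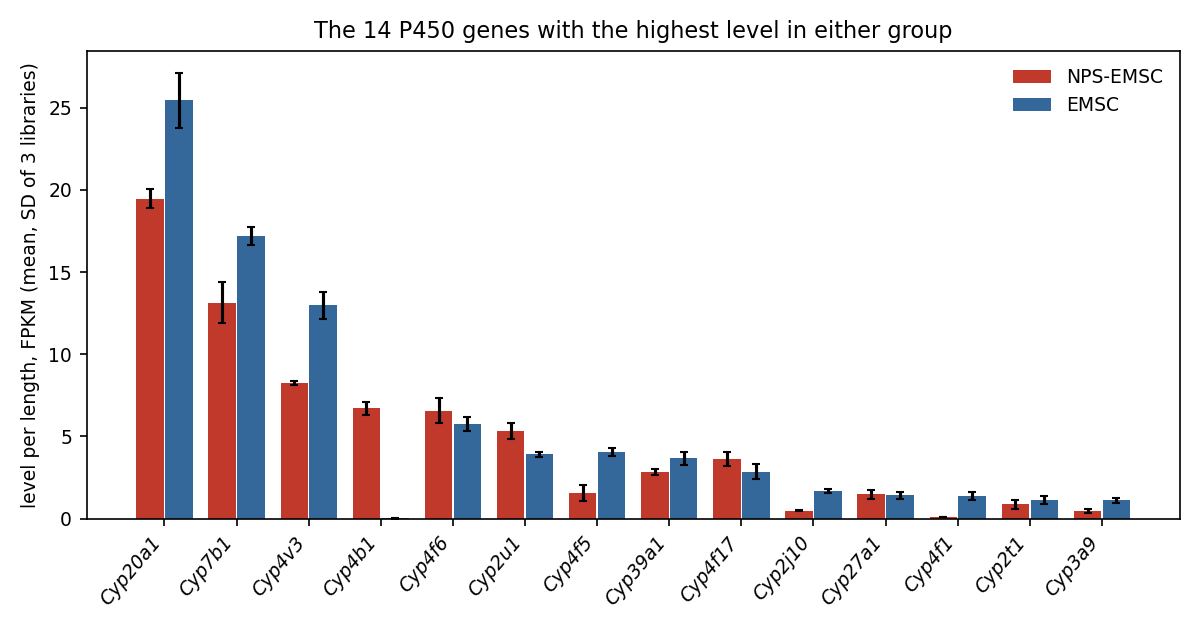
Level per length of the 14 P450 members with the highest FPKM in either group, as bars of the mean with SD over 3 libraries, NPS-EMSC in red left of EMSC in blue. Among these members Cyp20a1 leads in both groups at 19.5 and 25.4 FPKM, and Cyp4b1 has a visible bar in NPS-EMSC alone. P450 genes outside the rule are not drawn.

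Por, the electron donor, did not separate the groups. It had 71.1, 73.8 and 70.4 CPM in the NPS-EMSC libraries and 71.3, 69.0 and 66.1 CPM in the EMSC libraries. The ranges overlapped, with a log2 fold change of 0.06 (SE 0.05, adjusted p = 0.337). Summed P450 FPKM of the members was 2.93 ± 0.0481 times the FPKM of Por in NPS-EMSC and 3.40 ± 0.197 times in EMSC (SD, n = 3 each). This sum leaves out Cyp51, at 63.2 FPKM in NPS-EMSC and 71.6 FPKM in EMSC, and includes mitochondrial members such as Cyp27a1. The ratio is therefore not the level of Por-dependent P450 per Por. Other redox and heme-binding partners were split. Of 11 tested members of the list of cytochrome b5, ferredoxin and Pgrmc genes, 2 were higher and 3 lower (median log2 fold change -0.10), where 59.3% of all genes tested were called. The list counts here and below are read against that share and none is taken as particular to its list. Cyb5a, the microsomal cytochrome b5 that assists several P450 reactions, fell to 49.5 ± 2.03 CPM in NPS-EMSC, against 136 ± 5.99 CPM in EMSC (log2 fold change -1.46, SE 0.05, adjusted p = 6.63e-18). Pgrmc2, a heme-binding membrane protein gene, rose by 0.83 (SE 0.05), and Cyb5r1, a cytochrome b5 reductase family gene, fell by 0.64 (SE 0.10).

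Heme is the cofactor of every P450. Of 12 tested genes that make it or break it down, 5 were higher and 2 lower (median 0.15), where 59.3% of all genes tested were called. Alas1, the rate-limiting step of heme synthesis outside red cells, rose to 45.5 ± 2.62 CPM in NPS-EMSC, against 27.4 ± 0.682 CPM in EMSC (log2 fold change 0.73, SE 0.07, adjusted p = 1.30e-09). Hmox1, the inducible heme oxygenase, rose by 0.37 (SE 0.05). Of the biliverdin reductases that follow it, Blvrb rose by 1.09 (SE 0.07) and Blvra fell by 0.52 (SE 0.11).

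CYP4 enzymes hydroxylate the far end of fatty acids and eicosanoids. Of the 10 CYP4 members, 7 were tested, 2 of them called higher, 3 lower and 2 not called, where 59.3% of all genes tested were called. Cyp4b1, known from lung and airway for activating plant and industrial toxicants, gave 618, 546 and 591 reads in NPS-EMSC, against 4, 1 and 1 in EMSC. It passed the filter on low counts through NPS-EMSC alone. Every NPS-EMSC library lay far above every EMSC library, and the summed reads gave a ratio of 307 (95% counting interval 141 to 837, counting error only). The mean was 15.1 ± 1.01 CPM in NPS-EMSC and 0.0490 ± 0.0417 CPM in EMSC (SD, n = 3 each; log2 fold change 7.25, SE 0.25). The fit pulls genes with few reads towards 0, so this fold change is smaller than the ratio of summed reads. Its SE came from the test statistic, is narrower than the counting interval and does not give the precision of that ratio. Among all genes tested 1 had a larger fold change, and that was Nps itself. The gain of Cyp4b1 was known beforehand, so this rank is a description. Cyp4a1, the neighbouring protein-coding gene in RefSeq assembly GRCr8, had 4 reads, all in NPS-EMSC replicate 1. To show what lies before the strongest riser and before the neighbours Cyp4f1 and Cyp4f6, which behaved differently, the 250 bases upstream of the RefSeq start are given for Cyp4b1 (chr5:134393117-134393366), Cyp4f1 (chr7:12672554-12672803) and Cyp4f6 (chr7:12708379-12708628), all GRCr8, minus strand, read 5′ to 3′. Capitals mark the core of the aryl hydrocarbon receptor element, GCGTG on either strand.
Cyp4b1: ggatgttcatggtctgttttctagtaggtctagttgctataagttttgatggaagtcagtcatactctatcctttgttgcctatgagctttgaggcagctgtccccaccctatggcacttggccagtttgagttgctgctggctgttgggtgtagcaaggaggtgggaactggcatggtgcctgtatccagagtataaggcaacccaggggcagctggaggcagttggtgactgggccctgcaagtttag
Cyp4f1: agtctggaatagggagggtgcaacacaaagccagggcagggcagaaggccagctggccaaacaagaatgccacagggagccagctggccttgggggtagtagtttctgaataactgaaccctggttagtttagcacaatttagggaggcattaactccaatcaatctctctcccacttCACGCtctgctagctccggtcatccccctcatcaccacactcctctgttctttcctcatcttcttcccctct
Cyp4f6: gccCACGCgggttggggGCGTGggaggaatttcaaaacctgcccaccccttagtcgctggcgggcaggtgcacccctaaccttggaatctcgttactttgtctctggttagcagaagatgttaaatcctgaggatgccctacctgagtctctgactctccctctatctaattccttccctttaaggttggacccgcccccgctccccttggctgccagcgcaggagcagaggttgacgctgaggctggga
The windows of Cyp4b1 and Cyp4f1 lie within the span of longer RefSeq transcripts of those genes, so these starts may not be the ones used here. The core occurred once before Cyp4f1, at 2 places before Cyp4f6 and nowhere in the Cyp4b1 window, and 25.9% of the 33469 promoter windows in the table held it. The nuclear receptor motif AGGTCA, searched on either strand, was in none of the 3 windows and in 14.1% of all windows. Of 33 members with a window, 11 held the first motif in at least 1 window and 12 the second. The shares above count windows and not genes, so they are no baseline for these counts. A match is a description of letters and not a site.

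The CYP4F genes, whose products include leukotriene hydroxylases, went in different directions although most lie side by side. Cyp4f1 had 0.235, 0.207 and 0.282 CPM in the NPS-EMSC libraries and 2.96, 2.65 and 3.63 CPM in the EMSC libraries. The groups lay far apart, with a log2 fold change of -3.42 (SE 0.34). NPS-EMSC replicates 1 and 2, at 9 and 8 reads, fell under the filter on low counts. Cyp4f1 passed it through EMSC, so no p-value is given. Cyp4f6, its direct neighbour, had 17.2, 20.3 and 16.4 CPM in NPS-EMSC and 16.4, 14.5 and 14.9 CPM in EMSC, with the ranges nearly touching and a log2 fold change of 0.24 (SE 0.10) whose adjusted p of 0.05004 lay just above the threshold. In the row of 4 neighbours Cyp4f39, Cyp4f17, Cyp4f5 and Cyp4f37, Cyp4f17 had 11.5, 9.59 and 12.0 CPM in NPS-EMSC and 9.45, 7.001 and 8.72 CPM in EMSC. It was called higher by a small margin (log2 fold change 0.39, SE 0.14, adjusted p = 0.0150), and lost the call without NPS-EMSC replicate 1 or 3 or EMSC replicate 2 (adjusted p 0.00522 to 0.102 over 15 alternatives). Cyp4f5, next to it, had 4.07, 5.84 and 3.29 CPM in NPS-EMSC and 11.4, 10.4 and 11.02 CPM in EMSC, a fall of 2.49-fold without overlap (log2 fold change -1.30, SE 0.17, adjusted p = 3.21e-07). Cyp4f39, whose mouse counterpart makes skin barrier lipids, had 0.940, 1.45 and 1.13 CPM in NPS-EMSC and 0.389, 0.792 and 0.626 CPM in EMSC. Its values did not overlap but it was not called (log2 fold change 0.91, SE 0.41, adjusted p = 0.0608). CYP4F genes are close paralogs, as are CYP2J genes, and how the counting divided reads between such copies is unknown, so these values are uncertain.

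**Figure D3:**
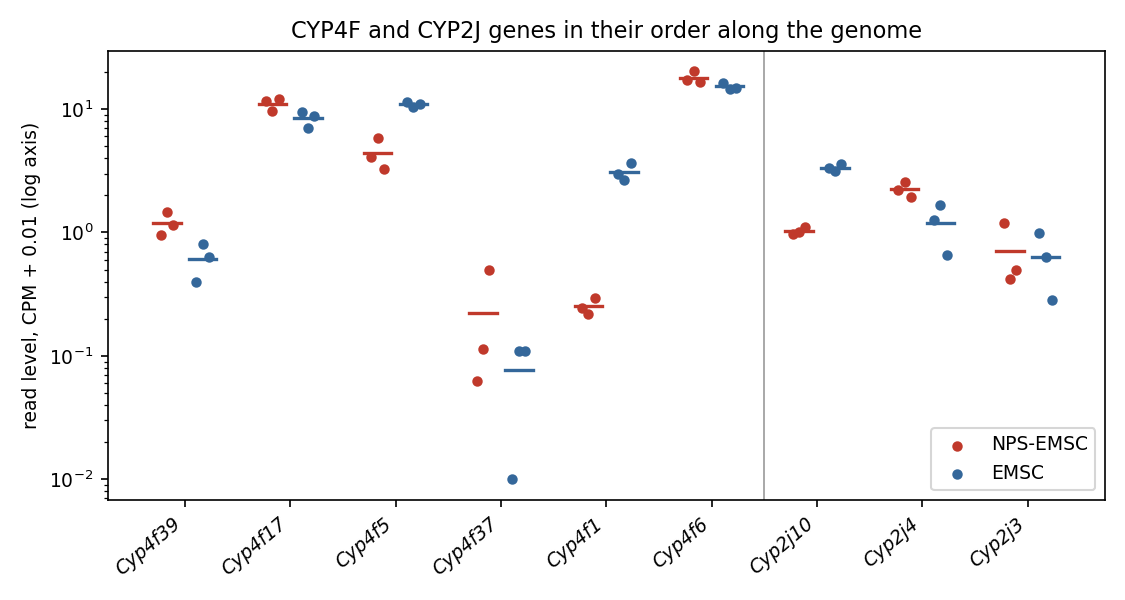
Read level of CYP4F and CYP2J members, with neighbours in RefSeq assembly GRCr8 kept in order, as CPM + 0.01 on a log axis. Points are libraries and lines are means, with NPS-EMSC in red left of EMSC in blue. The order between runs of neighbours and the place of Cyp2j10 were not taken from the assembly, and Cyp4f18 is not drawn. Cyp4f5, Cyp4f1 and Cyp2j10 lie lower in NPS-EMSC, while Cyp4f17 and Cyp2j4 lie higher.

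Cyp4v3, the rat counterpart of the human gene behind a crystalline eye dystrophy, was the most abundant CYP4 gene per length. It had 32.3, 32.8 and 32.2 CPM in NPS-EMSC and 49.8, 46.3 and 51.8 CPM in EMSC. The NPS-EMSC values were nearly equal and all below EMSC (log2 fold change -0.60, SE 0.07, adjusted p = 1.47e-08).

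The CYP1, CYP2 and CYP3 families handle foreign chemicals and some fatty acids. Of 19 members 10 were tested, and 3 were higher, 4 lower and 3 not called, where 59.3% of all genes tested were called. Cyp1a2, a hepatic enzyme for arylamines and caffeine induced through the aryl hydrocarbon receptor, had 1, 0 and 0 reads in NPS-EMSC and 17, 22 and 22 in EMSC. The EMSC reads stood higher by a ratio of 58.2 (95% counting interval 10.1 to 2335, counting error only). Cyp2s1, another gene induced through that receptor, had 0, 1 and 4 reads in NPS-EMSC and 29, 31 and 26 in EMSC, a ratio of 16.4 in favour of EMSC (95% counting interval 6.76 to 51.8, counting error only). Both genes passed the filter on low counts through EMSC alone, so no p-value is given, and both were low, with a mean of at most 0.707 CPM in EMSC. The summed leukocyte and macrophage markers and the summed glial markers were also lower in NPS-EMSC, as given above. Whether such cells held the reads of Cyp1a2 or Cyp2s1 was not tested.

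The CYP2J genes, epoxygenases of arachidonic acid, also differed among themselves. Cyp2j10 had 0.966, 1.01 and 1.10 CPM in NPS-EMSC and 3.30, 3.14 and 3.56 CPM in EMSC, a clear separation downward (log2 fold change -1.65, SE 0.26, adjusted p = 5.04e-06). Cyp2j4 had 2.19, 2.56 and 1.93 CPM in NPS-EMSC and 1.26, 1.66 and 0.651 CPM in EMSC. It was called higher (log2 fold change 0.87, SE 0.32, adjusted p = 0.0228), though not without NPS-EMSC replicate 2 or EMSC replicate 3 (adjusted p 0.00753 to 0.112 over 15 alternatives). Cyp2j3, its neighbour, had 1.18, 0.414 and 0.488 CPM in NPS-EMSC and 0.971, 0.618 and 0.276 CPM in EMSC, with wide overlap (adjusted p = 0.824).

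Cyp2u1, a fatty acid hydroxylase gene, was the most abundant CYP2 member per length. It had 19.9, 23.7 and 21.6 CPM in NPS-EMSC and 14.7, 16.1 and 15.6 CPM in EMSC, higher without overlap (log2 fold change 0.49, SE 0.09, adjusted p = 7.88e-05). Cyp2e1, the ethanol-inducible enzyme, had 1.54, 0.620 and 1.49 CPM in NPS-EMSC and 0.461, 0.322 and 0.726 CPM in EMSC. The groups overlapped through NPS-EMSC replicate 2, and its call as higher (log2 fold change 1.20, SE 0.45, adjusted p = 0.0244) was lost without any of 4 libraries, NPS-EMSC replicates 1 and 3 and EMSC replicates 1 and 2 (adjusted p 0.00594 to 0.116 over 12 alternatives). Cyp3a9, a steroid and drug hydroxylase gene, had 0.914, 1.11 and 0.719 CPM in NPS-EMSC and 1.77, 2.08 and 2.38 CPM in EMSC. It fell without overlap (log2 fold change -1.14, SE 0.32, adjusted p = 0.00321). Cyp2t1 had 2.27, 3.72 and 2.21 CPM in NPS-EMSC and 3.16, 4.18 and 2.91 CPM in EMSC, overlapping and not called (log2 fold change -0.32, SE 0.24, adjusted p = 0.260). Cyp2d4 ran from 0.308 to 0.801 CPM in NPS-EMSC and from 0.225 to 0.534 CPM in EMSC, overlapping and not called (log2 fold change 0.37, SE 0.51). With 9 reads in EMSC replicate 3, it passed the filter on low counts in every library of NPS-EMSC alone, so no p-value is given.

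**Figure D4:**
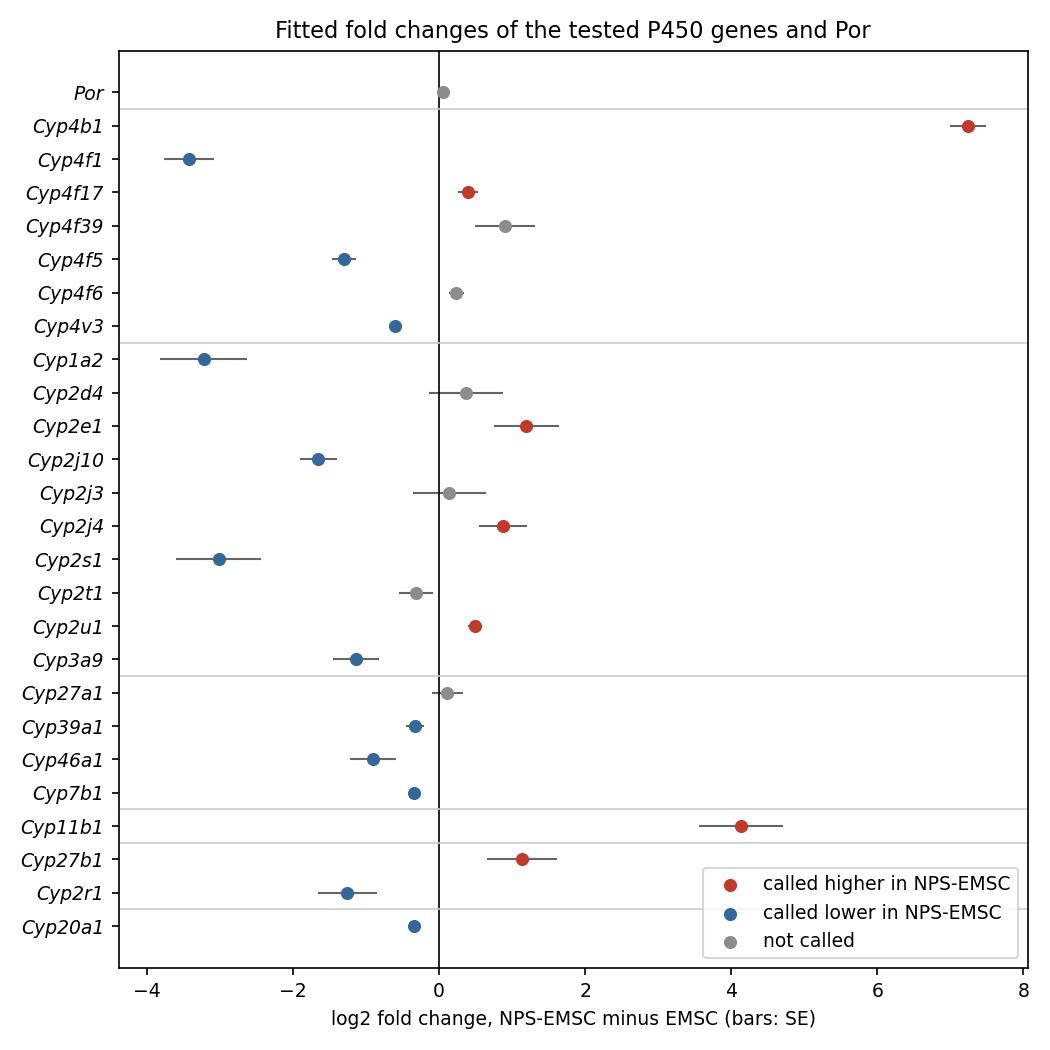
Fitted log2 fold change of the 26 tested members, NPS-EMSC minus EMSC, with bars of 1 SE, red for called higher, blue for called lower and grey for not called, grouped by role. Values run from -3.42 for Cyp4f1 to 7.25 for Cyp4b1, and the 4 sterol-handling members from -0.90 for Cyp46a1 to 0.11 for Cyp27a1. Fitted values of members with few reads are pulled towards 0, and by ratio of reads Cyp1a2 and Cyp2s1 fell more than Cyp4f1.

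The 4 P450 genes of sterol and bile acid metabolism were all tested, and 3 fell by modest amounts, where 29.5% of all genes tested were called lower. Cyp7b1, the oxysterol hydroxylase of the acidic bile acid pathway, had 31.8, 37.95 and 36.0 CPM in NPS-EMSC and 45.8, 45.0 and 43.4 CPM in EMSC. The ranges did not overlap (log2 fold change -0.34, SE 0.07, adjusted p = 1.59e-04). Cyp39a1, which acts on hydroxycholesterol in the same route, had 9.74, 8.51 and 9.42 CPM in NPS-EMSC and 11.2, 10.6 and 12.9 CPM in EMSC. Its call as lower (log2 fold change -0.32, SE 0.12, adjusted p = 0.0262) was lost without NPS-EMSC replicate 2 or 3 or EMSC replicate 3 (adjusted p 0.0135 to 0.130 over 15 alternatives). Cyp46a1, the brain cholesterol hydroxylase, had 1.15, 1.24 and 1.05 CPM in NPS-EMSC and 1.72, 3.12 and 1.73 CPM in EMSC. EMSC replicate 2 stood above its group, and without it the fall (log2 fold change -0.90, SE 0.31, adjusted p = 0.0157) was not called (adjusted p 0.00943 to 0.182 over 15 alternatives). Cyp27a1, the mitochondrial sterol hydroxylase, had 4.205, 2.82 and 3.78 CPM in NPS-EMSC and 3.89, 2.97 and 3.13 CPM in EMSC and did not separate them (log2 fold change 0.11, SE 0.21, adjusted p = 0.671).

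Of 14 tested enzymes of sterol and steroid metabolism whose symbols fall outside the rule, 3 were higher and 6 lower (median -0.14). The list includes Cyp51, a P450 of sterol synthesis, called lower (log2 fold change -0.14, SE 0.05, adjusted p = 0.0189). Hsd11b1, which regenerates active glucocorticoid, rose to 79.3 ± 2.93 CPM in NPS-EMSC, against 21.6 ± 0.837 CPM in EMSC (log2 fold change 1.87, SE 0.06, adjusted p = 1.07e-18). The peroxisomal Hsd17b4 fell by 0.47 (SE 0.05).

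Of the P450 genes that make steroid hormones, Cyp11b1 alone was tested. Cyp11b1, the adrenal hydroxylase that completes glucocorticoid synthesis, had 59, 34 and 37 reads in NPS-EMSC and 2, 0 and 0 in EMSC. Every NPS-EMSC library lay above every EMSC library, with a ratio of 68.1 (95% counting interval 18.5 to 569, counting error only). The gene passed the filter on low counts through NPS-EMSC alone, so no p-value is given. The level in NPS-EMSC was low, at 0.279 ± 0.0886 FPKM (SD, n = 3). Cyp11b3, a close relative with which it could share reads, had 2 reads, both in NPS-EMSC replicate 3. Cyp19a1, the aromatase gene, and Cyp21a1 had 1 and 2 reads in all, in EMSC alone.

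The vitamin D P450 genes were low in both groups. Cyp2r1, a hepatic enzyme for the first activating step, had 1.02, 0.646 and 0.257 CPM in NPS-EMSC and 1.46, 1.46 and 1.88 CPM in EMSC. It was called lower in NPS-EMSC (log2 fold change -1.26, SE 0.40), but not without NPS-EMSC replicate 3. That library, with 10 reads, fell just under the filter on low counts. Cyp2r1 passed the filter through EMSC alone, so no p-value is given. Cyp27b1, which completes the active hormone, had 24, 36 and 29 reads in NPS-EMSC and 11, 21 and 7 in EMSC. Its call as higher (log2 fold change 1.14, SE 0.48) was lost without any 1 library other than EMSC replicate 2 and with no filter on low counts. With 7 reads in EMSC replicate 3, it passed that filter through NPS-EMSC alone, so no p-value is given. Cyp24a1, which inactivates the hormone, had 2, 11 and 0 reads in NPS-EMSC and 6, 4 and 7 in EMSC, too few to test. Cyp20a1, an orphan P450 without a settled substrate, had the highest FPKM of the P450 members in both groups. Outside the rule, Cyp51 stood higher in both groups, and Ptgis, a P450 by structure, stood higher in EMSC. Cyp20a1 had 42.5, 40.6 and 43.3 CPM in NPS-EMSC and 51.8, 51.2 and 57.3 CPM in EMSC, lower without overlap (log2 fold change -0.34, SE 0.06, adjusted p = 4.73e-05).

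The 16 untested members held 1 to 52 reads over the 6 libraries, and 12 of them fewer than 10. Cyp2a3, Cyp2f4 and Cyp2b1, enzymes known from rat nasal or lung epithelium, had 1, 5 and 1 reads, all in NPS-EMSC, beside epithelial markers below 1 CPM in sum. Cyp4f18, a leukotriene hydroxylase of neutrophils in the mouse, had 4, 10 and 31 reads in NPS-EMSC and 1, 0 and 6 in EMSC. Cyp4f37 had 2, 4 and 19 reads in NPS-EMSC and 0, 4 and 4 in EMSC, and NPS-EMSC replicate 3 was the highest library for both. Of 20 Cyp2c11 reads, 16 lay in EMSC replicate 2. A gene with 0 reads in a library may still be expressed below the 3 counts that such a result allows.

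Of 18 tested regulators of P450 genes, 7 were higher and 4 lower (median 0.11), against 29.7% and 29.5% of all genes tested. Ahr, the aryl hydrocarbon receptor, fell to 556 ± 3.84 CPM in NPS-EMSC, against 811 ± 7.46 CPM in EMSC (log2 fold change -0.54, SE 0.04, adjusted p = 4.34e-11). Rara, a retinoic acid receptor, fell by 0.77 (SE 0.06) and Nr2f2, an orphan nuclear receptor, rose by 0.87 (SE 0.06).

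Of 18 tested conjugating enzymes, which act after P450s, 5 were higher and 7 lower (median -0.18), against 29.7% and 29.5% of all genes tested. Gstp1, a glutathione transferase, rose by 1.36 (SE 0.05), Mgst2 rose by 0.90 (SE 0.05) and Gstm1 fell by 1.18 (SE 0.06). Of 11 genes for other oxylipin and epoxide enzymes 4 were tested, 2 higher and 2 lower (median -0.43). Ephx2, the soluble hydrolase of fatty acid epoxides such as those of CYP2J enzymes, fell to 2.95 ± 1.18 CPM in NPS-EMSC, against 8.06 ± 0.854 CPM in EMSC (log2 fold change -1.43, SE 0.22, adjusted p = 9.63e-06). Ptgis, prostacyclin synthase and itself a P450 by structure, fell by 1.13 (SE 0.07), and Lta4h rose by 0.26 (SE 0.06).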

How the data were processed

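The authors deposited raw read counts per gene for 6 libraries and an FPKM table of the same genes. Per the submitters' processing notes, the tools were R 3.2.0, DESeq, StringTie, HTSeq, HISAT2 and fastp, named without role or order. The build, the annotation and the strand setting: not given in the sources used here. Each deposited count over its FPKM gave 1 fixed length per gene, within 0.1 percent, so both tables hold the same measurement. Within-group library pairs differed by more than sampling noise (chi-square per degree of freedom 5.08 to 12.6).

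Counts were tested across all genes with the quasi-likelihood test of edgeR 4.0.16 in R 4.3.3, with TMM scaling, filterByExpr (minimum count 10, minimum total 15) and Benjamini-Hochberg adjustment over all genes. A gene was called at an adjusted p under 0.05, and adjusted p-values are from this test unless an alternative or a range over alternatives is named. Fold changes used a prior count of 2, which pulls genes with few reads towards 0, and the SE was derived from the log2 fold change and the square root of the F statistic. CPM uses TMM-scaled totals. Ratios of summed reads have exact conditional intervals (95 percent). RefSeq (GRCr8) gave neighbours and windows upstream of starts, and 42 of 42 symbols matched.

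Library values were given for Por and members of at least 0.5 CPM in either group. From each list the 3 members of smallest p were named, with the strongest of opposite direction to the first. A gene that this rule names is not reported here. Members, lists and roles were chosen with earlier results of these data known, and motifs and printed windows after the values were seen. Alternatives were other scalings (RLE, upper quartile), DESeq2 1.42.0, limma 3.58.1 (voom, and log2(FPKM + 1) or log2(FPKM + 0.1) for genes of at least 0.5 FPKM in 3 libraries), other filters, a stricter adjusted p of 0.01, each library left out, and the replicate number as a block.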

Additional observations from a re-analysis of the deposited data

How the results depend on the processing

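The count of 12 members called lower stayed within 1.5 times under every alternative run. The count of 7 called higher was 4 when 1 CPM was required in 3 libraries or more and 4 with limma on log2(FPKM + 1) or on log2(FPKM + 0.1), all of which test fewer members, and 3 at an adjusted p under 0.01. With each library left out it was 5 or 6. With the replicate block, 7 members were higher and 12 lower. Same-numbered libraries did not deviate together (correlations -0.0597, 0.0749 and 0.0518), so the numbers were not taken to pair the libraries. Of the 19 called members, 12 stayed under the threshold without any 1 library and 7 were lost without at least 1, each named with its values in the text. Direction turned in 3 members that were not called. With each library left out, the log2 fold change was -0.0125 to 0.26 for Cyp27a1, -0.11 to 0.68 for Cyp2d4 and -0.42 to 0.57 for Cyp2j3. Cyp4f39 was called by DESeq2 and limma-voom and without EMSC replicate 2, Cyp4f6 with RLE factors and without NPS-EMSC replicate 3 or EMSC replicate 1, and Cyp2t1 without NPS-EMSC replicate 2. With no filter, Cyp4f18 was also called higher (adjusted p = 0.0177), with 31 of its 45 NPS-EMSC reads in replicate 3. Members under about 1 CPM are limited by depth.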
